A study of Mus musculus with 8 samples.

Results

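Transcripts of 32 subunits and assembly factors of the constitutive 26S proteasome were examined in the cortex and hippocampus of mice that express GFP-GR100 or GFP. The members are the genes of the deposited table whose symbol is Psma, Psmb, Psmc or Psmd followed by a number, without Psmb5 to Psmb11, and whose 8 counts sum to 100 or more. The rule took 32 of the 43346 genes listed, 12 of the core particle (Psma1 to Psma8 and Psmb1 to Psmb4) and 20 of the regulatory particle (Psmc1 to Psmc6 and Psmd1 to Psmd14). It leaves out the catalytic subunits, constitutive as well as inducible, and takes in by name 3 chaperones that help to build the regulatory particle and then leave it (Psmd5, Psmd9 and Psmd10).

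Both groups held 4 mice aged 1.5 months, 2 females and 2 males, with 1 library of total RNA per animal. One group expressed green fluorescent protein (GFP), and the other expressed GFP fused to 100 glycine-arginine dipeptides (GFP-GR100), a stand-in for the poly(GR) protein made from the expanded C9orf72 repeat in frontotemporal dementia and amyotrophic lateral sclerosis. The GR100 fragment was cloned into a plasmid of an adeno-associated virus vector with enhanced GFP. The sources used here do not name the promoter of the vector, how it was delivered or the mouse strain. The GFP animals carry the fluorescent protein alone. The dissected tissue weighed 111.4 to 126.6 mg in GFP and 71.9 to 85.1 mg in GFP-GR100.

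The 26S proteasome degrades proteins that carry ubiquitin chains. Its barrel-shaped core particle is built from outer rings of alpha subunits, which gate the entrance, and inner rings of beta subunits, some of which cut peptide bonds. The regulatory particle caps the barrel: its base holds a ring of ATPases (Psmc1 to Psmc6) that unfold the substrate, and its lid holds Psmd14, which removes the ubiquitin chain. In neurons the proteasome turns over synaptic and misfolded proteins, and genes of the complex are known to be transcribed together under the transcription factor Nrf1 (Nfe2l1).

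Total counts ran from 65880460 to 89113010 per library. Markers of excitatory neurons, such as Slc17a7 at 749 to 1250 CPM (counts scaled to library size), were high in all 8 libraries. The 4 cerebellum and hindbrain markers summed to 4.79 to 13.5 CPM in GFP, highest in GFP 2, and to 4.64 to 7.53 CPM in GFP-GR100. Among them, Pcp2 was at 3.92 to 10.3 CPM and Hoxb3 at 0 to 0.0584 CPM. The excitatory neuron list had 0 of 5 markers called, with a summed level of 3580 to 3820 CPM in GFP and 2750 to 4430 CPM in GFP-GR100, the lowest being GFP-GR100 4. Of 5 microglia markers 3 were called higher at an adjusted p under 0.05 by edgeR, against 2.19% of all genes tested. The 5 summed to 286 to 361 CPM in GFP and 445 to 479 CPM in GFP-GR100. Of 4 choroid plexus markers 1 was called lower, against 0.324% of all genes, with sums, mostly of Ttr, of 120 to 344 and 26 to 80 CPM. Otx2 of that list was highest in GFP-GR100 4, at 2.64 CPM. Loci that carry ribosomal RNA (rRNA) sequence, Yam1, AY036118 and Lars2, held 11.4% and 6.74% of counts for GFP females and 8.77% and 9.83% for GFP-GR100 males. The share was lower for GFP males, at 3.8% and 3.54%, and for GFP-GR100 females, at 3.2% and 2.76%. The part of the tissue weight and the marker levels in the results was not tested, while the rRNA share was tried as a covariate. In bulk tissue, fewer cells of a type and less RNA per cell cannot be told apart.

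Promoter windows from RefSeq (GRCm38.p6, the assembly of mm10), reaching from 250 bases before to 50 bases after the annotated start, were on hand for 26 of the 32 members and 28 starts in all. Psma8, Psmb1, Psmb2, Psmc3, Psmd3 and Psmd7 had none. Stretches from 250 to 46 bases before the start are printed for a pair of core particle genes that hold the CCAAT box and a pair of lid genes that do not. Capitals mark matches to CCAAT on either strand, read as ATTGG on the opposite one, or to the antioxidant response element core TGACNNNGC, the kind of site bound by Nrf1, on either strand. The first is Psma1 at chr7:114276162-114276366 on the minus strand, the second Psma2 at chr13:14612992-14613196, the third Psmd11 at chr11:80428365-80428569 and the last Psmd12 at chr11:107479278-107479482, these 3 on the plus strand.
Psma1: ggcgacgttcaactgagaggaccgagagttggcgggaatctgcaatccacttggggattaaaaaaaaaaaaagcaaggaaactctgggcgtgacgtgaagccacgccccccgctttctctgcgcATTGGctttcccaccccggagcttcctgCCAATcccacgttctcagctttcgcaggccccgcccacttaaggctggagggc
Psma2: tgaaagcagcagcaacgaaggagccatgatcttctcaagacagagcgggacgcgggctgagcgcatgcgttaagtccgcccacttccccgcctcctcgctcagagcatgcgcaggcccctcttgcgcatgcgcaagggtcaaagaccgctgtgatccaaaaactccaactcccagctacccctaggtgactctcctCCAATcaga
Psmd11: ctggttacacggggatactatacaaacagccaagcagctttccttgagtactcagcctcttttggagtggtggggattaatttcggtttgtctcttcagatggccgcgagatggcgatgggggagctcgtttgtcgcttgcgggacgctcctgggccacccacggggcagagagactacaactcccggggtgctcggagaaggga
Psmd12: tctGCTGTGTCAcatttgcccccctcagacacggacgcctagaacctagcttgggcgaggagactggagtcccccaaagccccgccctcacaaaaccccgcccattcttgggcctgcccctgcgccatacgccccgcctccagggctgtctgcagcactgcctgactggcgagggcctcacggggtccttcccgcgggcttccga

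Psma1 held the box at 126 and 98 bases before its start, on opposite strands, and Psma2 at 54 bases before. The Psmd11 stretch held none of the motifs searched, and Psmd12 held the antioxidant response element core on the opposite strand at 247 bases before. Over the whole windows, the CCAAT box stood in 11 of 26 members, or 42.3%, against 41.1% of the 27025 genes in the promoter table. It stood in 6 of 9 core particle members and 5 of 17 regulatory particle members, or 66.7% and 29.4%. The antioxidant response element core stood in 3 of 26 members, Psmc6, Psmd12 and Psmd9, or 11.5% against 14% of all genes. The heat shock element GAANNTTC, searched in the same way, stood in 0 of 26 members and in 9.04% of all genes. Members with the CCAAT box had a median log2 fold change of -0.12, and those without it -0.19. Within the core particle these medians were -0.11 and -0.15, and within the regulatory particle -0.16 and -0.20. These matches are letters in a window and do not show that a factor binds there.

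Levels per length, in RPKM (reads scaled by gene length and library size), differed widely between members. Psmb1, a beta subunit without catalytic activity, stood highest with a mean of 99.2 RPKM over the 8 libraries, followed by the ATPases Psmc5 at 91.5 and Psmc1 at 82.8 RPKM and by Psmb4 at 82.4 RPKM. The alpha ring ran from 21.1 RPKM for Psma3 to 72.7 RPKM for Psma2, apart from Psma8. The ATPase ring ran from 18 RPKM for Psmc2 to 91.5 RPKM for Psmc5, and the lid from 8.58 RPKM for Psmd11 to 54.2 RPKM for Psmd8. The 3 base chaperones were low, with Psmd9 at 5.35, Psmd10 at 8.37 and Psmd5 at 10.4 RPKM. Psma8, an alpha subunit of the testis proteasome, was near the floor, with 12 to 22 counts per library and a mean of 0.139 RPKM. Transcripts of subunits that stand in equal number in the finished particle were thus not at 1 level. RPKM divides by the listed gene model, from 944 bases for Psma2 to 7265 bases for Psmd1, which may join exons of several transcripts, so part of the spread between members can come from those lengths.

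**Figure D1:**
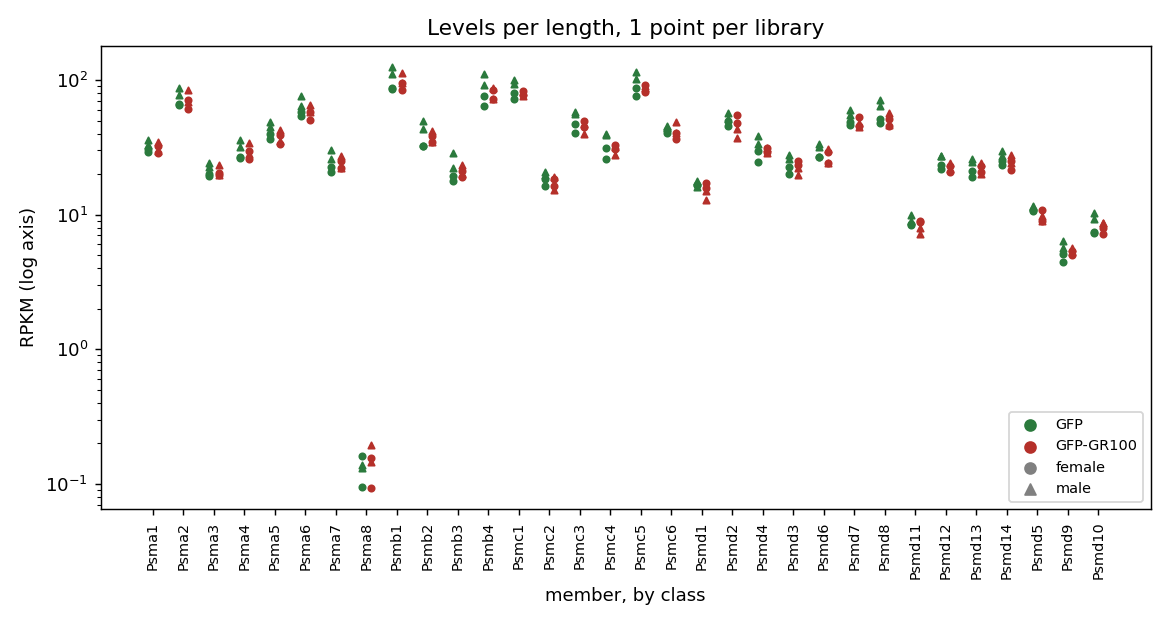
RPKM (log axis) of the 32 members, ordered by class, with 1 point per library, green for GFP and red for GFP-GR100, circles for females and triangles for males. Psma8 lies far below the others, with a mean of 0.139 RPKM, and the points of the groups overlap for all members.

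The median core particle member stood above the median regulatory particle member in all 8 libraries, Psma8 left out. The ratio of the medians was 1.35, 1.25, 1.55 and 1.46 for the GFP libraries 1 to 4 and 1.43, 1.41, 1.43 and 1.43 for the GFP-GR100 libraries 1 to 4. The groups overlap in this ratio of RPKM values, and the 4 GFP-GR100 values lie inside the range of the GFP values.

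No proteasome subunit passed the test between GFP-GR100 and GFP, but nearly all were somewhat lower. Of 32 members, 0 were higher and 0 lower at an adjusted p under 0.05 (edgeR quasi-likelihood test with Benjamini-Hochberg adjustment), where 2.19% of the 20987 genes tested rose and 0.324% fell, 2.52% in all. Of the members, 31 had a log2 fold change below 0, against 54.6% of all genes tested. The median log2 fold change was -0.16, or 10.4% lower, against -0.02 over all genes. At an unadjusted p under 0.05, 7 members were lower and 0 higher, against 7.37% and 8.23% of all genes. All 32 passed the filter on low counts. DESeq2, limma-voom and limma-trend on RPKM also called 0 members, where DESeq2 called 0.953% of all genes lower and 3.45% higher.

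The count of members at an unadjusted p under 0.05 changed with the libraries kept. The 7 members became 1 without GFP 3, GFP 4 or GFP-GR100 4 and 0 without GFP-GR100 2. The share of all genes lower in these fits was 5.7%, 3.16%, 5.88% and 3.05%, against 7.37% with all libraries. Without GFP 1, GFP 2, GFP-GR100 1 or GFP-GR100 3 there were 9, 6, 9 and 10 members, against 7.36%, 6.39%, 5.81% and 5.4% of all genes. Without both GFP 3 and GFP-GR100 4, 25 of the 32 members had a log2 fold change below 0. Of these, 1 had an unadjusted p under 0.05, against 6.25% of all genes. The medians in that fit were -0.01 for the core and -0.08 for the regulatory particle. With the rRNA share in the model, 14 were lower at an unadjusted p under 0.05, against 10.9% of all genes, and 0 were called.

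**Figure D2:**
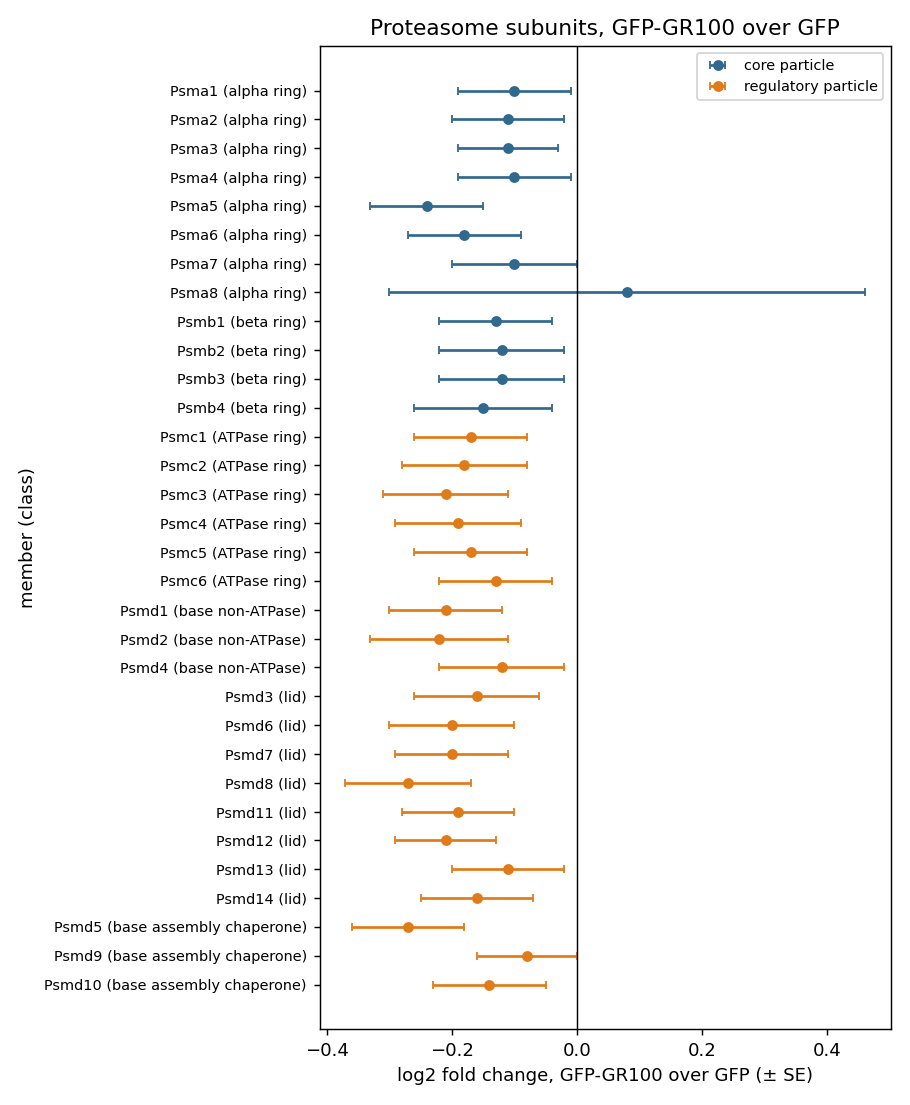
Fitted log2 fold change (GFP-GR100 relative to GFP) with its standard error for each of the 32 members, blue for the core particle and orange for the regulatory particle. All but Psma8 lie below 0, between -0.27 and -0.08, and none passed the adjusted test.

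Over both sexes, the median of the regulatory particle was lower than that of the core particle by a small margin, an order that held in males and not in females. The median log2 fold change was -0.11 for the 12 core members, or 7.57% lower, and -0.19 for the 20 regulatory members, or 12.1% lower, a difference of 0.07. At an unadjusted p under 0.05, 1 of the 12 core members and 6 of the 20 regulatory members were lower, against 7.37% of all genes. Within males the medians were -0.19 for the core and -0.29 for the regulatory particle, and within females -0.09 and -0.07. Without the 3 base chaperones the regulatory median was -0.19 over both sexes and -0.05 in females. The core minus regulatory difference of medians lay between 0.03 and 0.09 when single libraries were left out. The core median itself then ran from -0.16 to -0.05, the latter without GFP 3 or GFP-GR100 4, and the regulatory median from -0.21 to -0.12.

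By library, each member was set against its own mean log2 CPM over the 8 libraries, and these deviations were averaged over each particle without Psma8. The core minus regulatory average was -0.05, -0.08, 0.08 and -0.05 for GFP 1 to 4 and -0.04, -0.06, 0.14 and 0.05 for GFP-GR100 1 to 4. The groups overlap, and the higher values are those of GFP-GR100 3, GFP 3 and GFP-GR100 4, all from males. The mean core deviation on the same log2 scale was -0.07, -0.08, 0.3 and 0.13 in GFP and -0.05, -0.24, 0.15 and -0.13 in GFP-GR100. The mean regulatory deviation was -0.02, -0.01, 0.21 and 0.17 in GFP and -0.01, -0.18, 0.01 and -0.18 in GFP-GR100. The regulatory particle was highest in both GFP males. The core particle was highest in GFP 3, followed by GFP-GR100 3 and GFP 4, and in GFP-GR100 3 the regulatory particle was near its mean. Of 31 members, 24 had their highest value in GFP 3 and 22 their lowest in GFP-GR100 2.

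**Figure D3:**
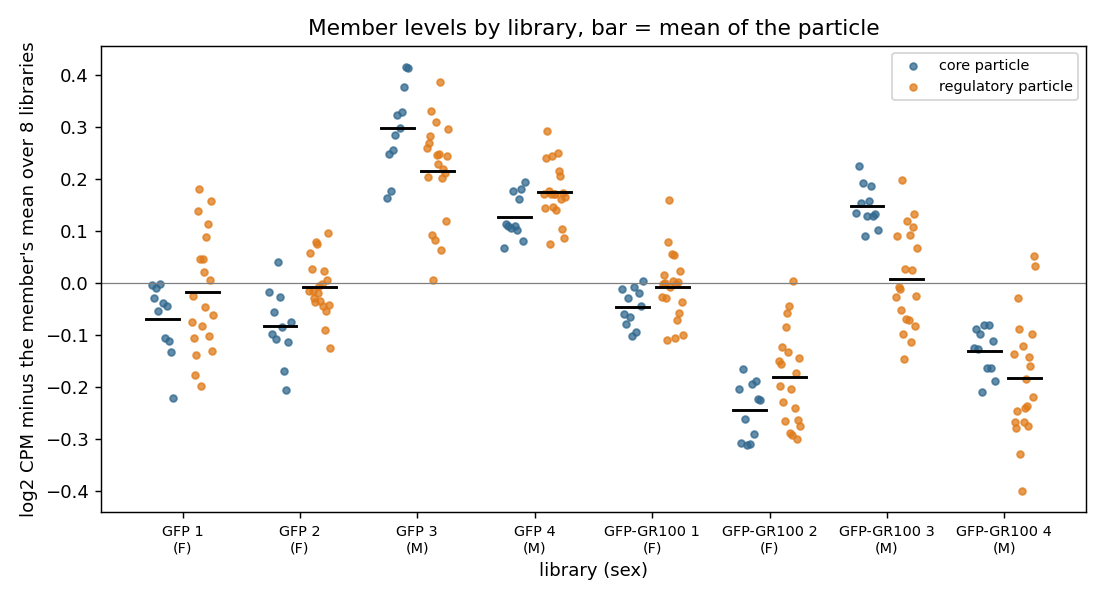
Log2 CPM of each member minus its own mean over the 8 libraries, by library and sex, with 1 point per member (without Psma8), blue for the core and orange for the regulatory particle, and a bar for the mean of the particle. Most members are highest in GFP 3, where the core mean is 0.3, and lowest in GFP-GR100 2, where it is -0.24.

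Among alpha subunits, Psma5 had the smallest p. Psma5, on chromosome 3 from 108256926 to 108279974 in mm10, was at 52.4, 54, 63.9 and 59.3 CPM (GFP 1 to 4) and at 50.2, 42.3, 55.9 and 45.4 CPM (GFP-GR100 1 to 4). All but GFP-GR100 3 lay below the lowest GFP value, so the groups overlap through that library. The means were 57.4 ± 5.27 and 48.5 ± 5.93 CPM (SD, n = 4), a log2 fold change of -0.24 (SE 0.09, adjusted p = 0.235 by edgeR). Psma6 was at 72 to 92.5 CPM in GFP and 59.7 to 80.9 CPM in GFP-GR100, a log2 fold change of -0.18. For Psma1, Psma2, Psma3, Psma4 and Psma7 the log2 fold changes lay between -0.11 and -0.1. Psma2, the most abundant alpha subunit per length, was at 66.8, 63.7, 81 and 73.8 CPM in GFP and 65.4, 55.1, 79.7 and 64.1 CPM in GFP-GR100, with groups that overlap over most of their range. Psma8 was at 0.162 to 0.297 CPM in GFP and 0.153 to 0.321 CPM in GFP-GR100, where 3 counts correspond to 0.0337 to 0.0455 CPM, so its log2 fold change of 0.08 (SE 0.38) is loosely determined.

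The beta ring members of the rule, which have structural roles, varied more within GFP than within GFP-GR100. Psmb4 was at 96.7, 107, 150 and 129 CPM in GFP and 113, 96.5, 121 and 98.9 CPM in GFP-GR100, or 121 ± 23.8 and 107 ± 11.7 CPM (SD, n = 4). The GFP-GR100 values lie almost wholly within the GFP range. Its log2 fold change was -0.15 (SE 0.11), the most negative of the ring. Psmb1 was at 90.7 to 128 CPM in GFP and 83.4 to 116 CPM in GFP-GR100, a log2 fold change of -0.13. Psmb3 and Psmb2, at -0.12 each, were highest in GFP 3 with 64.9 and 59.6 CPM. Without GFP 3 and GFP-GR100 4, the fold changes of Psmb2, Psmb3 and Psmb4 were above 0, at 0.05, 0.04 and 0.03 on the log2 scale.

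The 6 ATPases, which thread substrates into the core, had log2 fold changes between -0.21 and -0.13. Of the 6, 0 were lower at an unadjusted p under 0.05, against 7.37% of all genes. Psmc3, on chromosome 2 from 91054009 to 91066369, was at 115, 126, 149 and 146 CPM in GFP and 125, 111, 123 and 102 CPM in GFP-GR100. The GFP males stood above all other libraries, and the GFP females, at 115 and 126 CPM, lay within the GFP-GR100 values or just above them. Its log2 fold change was -0.21 (SE 0.10, adjusted p = 0.344 by edgeR). Psmc1 was at 119 to 150 CPM in GFP and 113 to 123 CPM in GFP-GR100, a log2 fold change of -0.17, and Psmc2 was at -0.18. Psmc5, the ATPase with the highest RPKM, had a log2 fold change of -0.17. Psmc6 was nearest to 0 with -0.13, at 64.3 to 72.6 CPM in GFP and 54.9 to 75.7 CPM in GFP-GR100.

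The base subunits Psmd1 and Psmd2 are large scaffold proteins that receive ubiquitin-like domains of shuttle factors and other partners. Psmd1 was at 131, 122, 116 and 130 CPM in GFP and 122, 109, 108 and 92 CPM in GFP-GR100. All but GFP-GR100 1 lay below the GFP range, and the log2 fold change was -0.21 (SE 0.09, adjusted p = 0.279 by edgeR). Psmd2 was the member with the highest CPM, at 199, 203, 204 and 228 in GFP and 215, 185, 174 and 146 in GFP-GR100. Its means were 209 ± 13.3 and 180 ± 28.2 CPM (SD, n = 4), with GFP-GR100 1 inside the GFP range and the others below it. The ubiquitin receptor Psmd4 was nearest to 0 of the base, with a log2 fold change of -0.12.

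In the lid, 4 of 8 subunits were lower at an unadjusted p under 0.05, against 7.37% of all genes. They were Psmd7, Psmd8, Psmd11 and Psmd12, and the median of the lid was -0.19. Psmd8, on chromosome 7 from 29174188 to 29180701, was at 80, 80.2, 108 and 98.2 CPM in GFP and 76.8, 67.5, 88.1 and 70.2 CPM in GFP-GR100. All but GFP-GR100 3 lay below the GFP values. Its log2 fold change was -0.27 (SE 0.10, adjusted p = 0.215 by edgeR). Psmd11, whose promoter stretch is printed above, was at 58, 55.4, 57 and 63.3 CPM in GFP and 54.5, 54.7, 50.4 and 45.1 CPM in GFP-GR100. It was 1 of 2 members whose groups did not overlap in CPM, with all GFP-GR100 values below, against 3.03% of all genes. The nearest values, 54.7 and 55.4 CPM, are close. In RPKM its groups overlap, at 8.36 to 9.89 in GFP and 7.19 to 8.95 in GFP-GR100. Psmd12 was at 58.6 to 71.9 CPM in GFP and 52.8 to 63.5 CPM in GFP-GR100, a log2 fold change of -0.21. Psmd14, the deubiquitinase of the lid, had a log2 fold change of -0.16 (SE 0.09), and Psmd13 was nearest to 0 with -0.11.

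The chaperone Psmd5 binds the ATPase Psmc2 during assembly and is released from the finished proteasome. It was the other member whose groups did not overlap in CPM, while in RPKM they overlap. GFP was at 10.6 to 11.6 RPKM and GFP-GR100 at 8.95 to 10.8 RPKM. Psmd5, on chromosome 2 from 34852088 to 34874968, was at 43.1, 41.3, 42 and 43.6 CPM in GFP and 39.3, 32.2, 36.5 and 33.2 CPM in GFP-GR100. The GFP values lie close together, at 42.5 ± 1.05 CPM (SD, n = 4), while the GFP-GR100 values spread over 35.3 ± 3.26 CPM. Its log2 fold change of -0.27 (SE 0.09), or 16.9% lower, had the smallest p of the 32 members, but did not pass (unadjusted p = 0.00831, adjusted p = 0.154 by edgeR). The chaperones Psmd10, also called gankyrin, and Psmd9 had log2 fold changes of -0.14 and -0.08.

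Overlapping genes bear on some of these values, because the sources do not say whether counting used the strand. Of the 32 members, 13 overlap another listed gene and 11 an antisense one. Psmd13 overlaps Sirt3, which had 73.1% as many counts as Psmd13, by 342 bases. Psmc3 overlaps Slc39a13 and Psmd1 the same-strand model Gm21972, with 16.6% and 22.5% as many counts as the member. Reads in these stretches cannot be assigned with certainty.

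Within sexes, the log2 fold changes of most members were more negative in males than in females. In the averages by library given above, both GFP males lay above both GFP females for each particle, while the sexes overlapped in GFP-GR100. The median log2 fold change of the 32 members was -0.26 in males and -0.08 in females, against 0 and -0.04 over all genes. In males, 31 of 32 members were below 0 and 16 had an unadjusted p under 0.05 in that direction, against 49.7% and 12.5% of all genes. In females, 27 were below 0 and 0 had an unadjusted p under 0.05, against 57.1% and 4.3%. Psmc4, Psmd2 and Psmd3 fell in males (edgeR, adjusted p = 0.0394, 0.0434 and 0.0487), by 0.41, 0.43 and 0.37 on the log2 scale. These are 3 of 32 members, where 9.33% of all genes were called in males and 3.78% were called lower. In females 0 members were called, against 0.881% of all genes in either direction and 0.0524% lower. Each sex holds 2 animals a group and the fit lends them the spread of all 8 libraries. The fits within a sex were not repeated without single libraries or with the rRNA share. In males that share was 3.8% and 3.54% for GFP and 8.77% and 9.83% for GFP-GR100. In females it ran the other way, at 11.4% and 6.74% for GFP and 3.2% and 2.76% for GFP-GR100. Group and rRNA share therefore cannot be told apart within either sex.

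The test of the difference between the sexes called 0 of 32 members, where 0.0524% of all genes were called by edgeR. The difference, males minus females, was below 0 for 28 members against 46.5% of all genes, and 3 members had an unadjusted p under 0.05 in that direction against 7.06%. These were Psmc4 with a difference of -0.44 (SE 0.16), Psmd3 with -0.42 (SE 0.15) and Psmd2 with -0.42 (SE 0.17) on the log2 scale, with adjusted p = 0.198, 0.199 and 0.247 by edgeR. Psmc4 was at 61.6 and 68.9 CPM for GFP females, 84.7 and 85.2 for GFP males, 69.6 and 63.9 for GFP-GR100 females and 69.1 and 58.7 for GFP-GR100 males. Psmd3 was at 109 and 115 CPM, 137 and 130, 120 and 112, and 110 and 95.9 in the same order. In both genes the GFP males stood above the other 6 libraries.

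The sexes of the GFP group differed for most members. Both GFP males lay above both GFP females for 27 of 32 members, 11 of the core and 16 of the regulatory particle, against 30.4% of all genes. In GFP-GR100 this held for 5 of 32 members, against 27.3% of all genes. The median difference of log2 fold changes, males minus females, was -0.16 over the 32 members, -0.07 for the core and -0.22 for the regulatory particle. The share of rRNA reads nearly follows the product of sex and group. It ran from 2.76% to 3.8% for GFP males and GFP-GR100 females, and was 6.74% or more elsewhere. With this share in the model the median difference was -0.09, with 22 members below 0 and 0 at an unadjusted p under 0.05. Such a fit can hardly separate the share from the sex difference, so no conclusion is drawn from the smaller median. Without GFP-GR100 4 the median was -0.07, with 19 members below 0, and without GFP 3 and GFP-GR100 4 it was -0.03, with 18 below 0. It was larger in other fits, at -0.3 without GFP-GR100 3, with 30 members below 0 and 9 at an unadjusted p under 0.05, and at -0.26 without GFP-GR100 2, with 30 and 5. On log2(RPKM + 0.1) with limma-trend it was -0.28, with 30 and 9. When single libraries were left out in turn, 0 to 9 members had an unadjusted p under 0.05, and 0 were called.

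**Figure D4:**
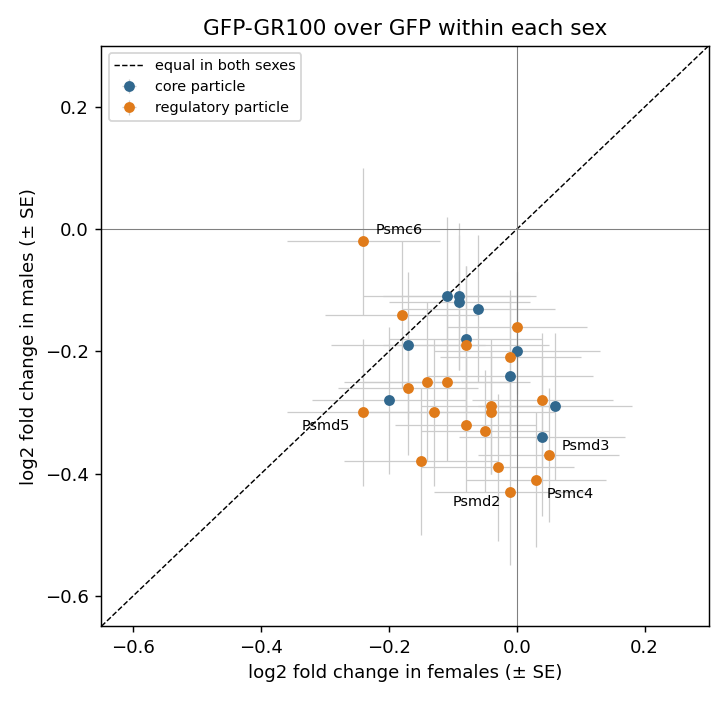
Log2 fold change (GFP-GR100 relative to GFP) of males (vertical) against females (horizontal), 1 point per member without Psma8, with standard errors in grey and the line of equal values dashed. Most members lie below the line, Psmc4, Psmd3 and Psmd2 farthest, while Psmc6 lies farthest above it with -0.02 in males and -0.24 in females.

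The catalytic subunits that the rule leaves out had fold changes in the range of the members, and their inducible counterparts did not. Psmb5, Psmb6 and Psmb7, which carry the chymotrypsin-like, caspase-like and trypsin-like activities, had log2 fold changes of -0.22, -0.15 and -0.13. Over both sexes 0 of 3 passed. Within males Psmb5 alone of the 3 was called, at -0.46 (adjusted p = 0.0328 by edgeR), where 3.78% of all genes were called lower. In females it was at 0.02, and the difference between the sexes did not pass (adjusted p = 0.189 by edgeR). Psmb8, which replaces Psmb5 in the immunoproteasome, was at 4.02, 2.61, 7.68 and 2.3 CPM in GFP and 11.4, 12.4, 15.3 and 11.3 CPM in GFP-GR100. All GFP-GR100 values lie above the GFP values, and GFP 3 is the highest of its group. The log2 fold change was 1.63 (SE 0.37), or 3.09-fold, with an adjusted p = 0.0905 by edgeR. Psmb9 was at 2.79, 1.45, 5.05 and 1.56 CPM and at 6.16, 7.16, 7.07 and 6.22 CPM, a log2 fold change of 1.32 (SE 0.38, adjusted p = 0.155 by edgeR), again without overlap. These were 2 of the 3 immunoproteasome genes, where 5.03% of all genes lay wholly above. Psmb10 was at 30.8 ± 4.88 and 36.1 ± 3.78 CPM (SD, n = 4), a log2 fold change of 0.24, with groups that overlap.

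The call of Psmb8 and Psmb9 turned on the tool and on single libraries. DESeq2 called both higher (adjusted p = 0.00375 and 0.048), and so did edgeR without GFP 3 (adjusted p = 0.000203 and 0.000562), while without GFP 4 edgeR called Psmb8 alone of the 3 genes (adjusted p = 0.0355). Limma-trend on RPKM plus 1 called both. Limma-voom and limma-trend on RPKM plus 0.1 called Psmb8 alone (adjusted p = 0.0322 and 0.0321). With no filter edgeR called both, and without the sex covariate Psmb8 alone (adjusted p = 0.0496). It called neither with other size factors, a mean of at least 1 CPM or the rRNA share, or without any single library other than GFP 3 or GFP 4. Without GFP 3 and GFP-GR100 4, edgeR called Psmb8, Psmb9 and Psmb10 higher. In GFP-GR100, Psmb8 at a mean of 4.71 RPKM was still far below Psmb5 at 93.3 RPKM. The immunoproteasome is known as an interferon-induced form that is abundant in immune cells. The summed microglia markers were higher in the same libraries, as given above, and their part in these values was not tested.

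**Figure D5:**
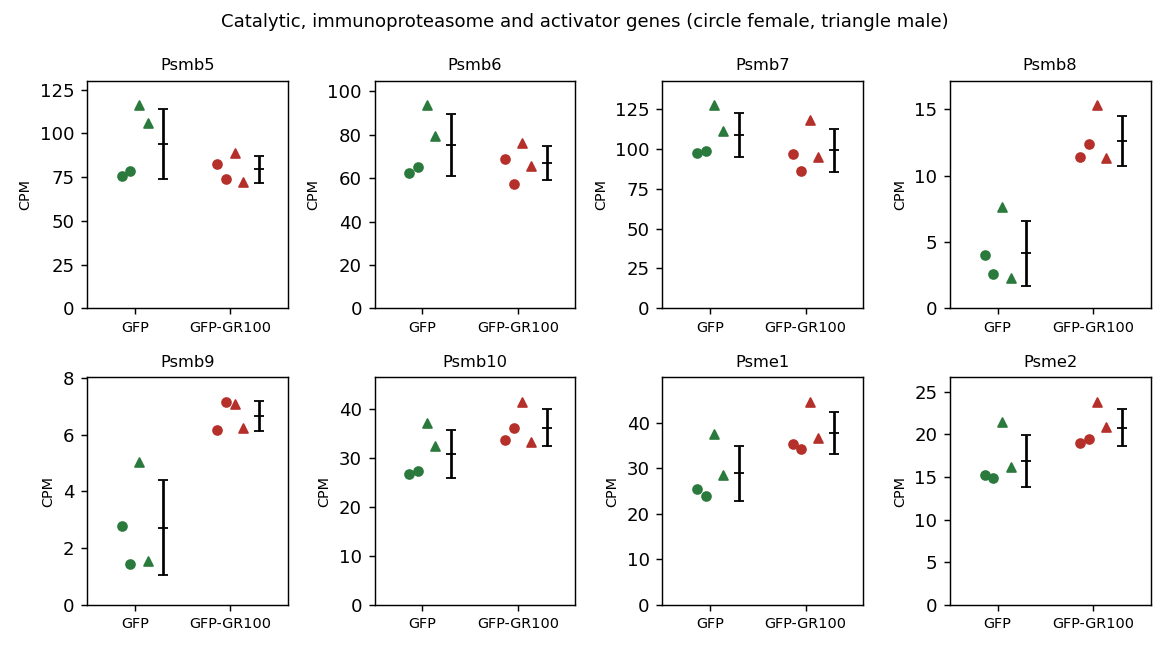
CPM of the constitutive catalytic genes Psmb5, Psmb6 and Psmb7, the immunoproteasome genes Psmb8, Psmb9 and Psmb10 and the activator genes Psme1 and Psme2, 1 point per library, with mean ± SD (n = 4) beside each group. Groups do not overlap for Psmb8 and Psmb9, and overlap for the other 6 genes.

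Other genes around the proteasome were examined in lists. Of 45 genes in 8 lists, 44 were found and 0 passed in either direction by edgeR over both sexes. The activator subunit Psme1, which with Psme2 opens the core without a regulatory particle, was at 25.5, 23.9, 37.5 and 28.6 CPM in GFP and 35.4, 34.3, 44.6 and 36.7 CPM in GFP-GR100. Its groups overlap through GFP 3, and the log2 fold change was 0.40 (SE 0.10, adjusted p = 0.0718 by edgeR, 0.0184 by DESeq2). Of the 5 activators and inhibitors, 2 were higher at an unadjusted p under 0.05, against 8.23% of all genes. The 5 chaperones of core assembly had log2 fold changes between -0.08 and -0.04, Pomp being at 82 ± 11.9 and 77.6 ± 10.5 CPM (SD, n = 4). The core subunits they help to assemble, without Psma8, lay between -0.24 and -0.1 on the same scale, a difference that was not tested. Without GFP 3 both moved toward 0, Pomp to 0.00 and the median of the core members to -0.05.

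The median log2 fold change was -0.09 for the 7 tested regulatory particle proteins without a Psm name, -0.12 for the 5 genes of the Nrf1 pathway, -0.13 for the 10 of ubiquitin and its shuttles and -0.08 for the 6 of the p97 segregase, which extracts ubiquitin-tagged proteins from membranes and complexes. Of these 7, 5, 10 and 6 genes, 1, 1, 3 and 0 were lower at an unadjusted p under 0.05, against 7.37% of all genes, and 0 were higher, against 8.23%. The ubiquitin ligase Ube3c, which binds the proteasome, was at 97.7 ± 7.16 and 82 ± 9.69 CPM (SD, n = 4), a log2 fold change of -0.26. Sel1l, a partner of the ligase Syvn1 at the endoplasmic reticulum, was at -0.27 and the p97 cofactor Nsfl1c at -0.16. The shuttle factor Ubqln1 was at 188, 189, 189 and 201 CPM in GFP and 183, 171, 153 and 150 CPM in GFP-GR100, all below the GFP values, with a log2 fold change of -0.23 (SE 0.09, adjusted p = 0.231 by edgeR).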

How the data were processed

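Total RNA from the cortex and hippocampus of 8 mice, 4 per group, was sequenced with a stranded total RNA kit, per the labels' protocols. The deposited table holds raw counts per gene. The submitters' processing notes name TopHat2 version 2.1.0, mm10, CASAVA, DESeq2 and R version 3.4.1. The sources used here do not name the counter, the annotation or the use of strand. The authors also deposited RPKM values, scaled to the summed gene counts (ratio 1.00028 to 1.00029). Replicates were numbered in accession order. No replicate pair agreed within sampling noise (lowest chi-square per degree of freedom 16.6).

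Counts were analysed with edgeR version 4.0.16 in R version 4.3.3: filterByExpr (minimum count 10, total 15), which kept 20987 genes, TMM scaling, a robust quasi-likelihood test with sex and group, and Benjamini-Hochberg adjustment over all genes at 0.05. The difference between sexes came from the product of sex and group. CPM is TMM-scaled. SE is the fold change divided by the square root of F. Each library is a different animal, and p-values measure the spread between animals.

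Named genes are those with the smallest p, the highest and lowest RPKM and the fold change nearest 0 in each class, all catalytic genes, and the smallest p of each other list, plus the smallest p for the sex difference. Other genes named (Psma1, Psma3, Psma4, Psma7, Psmd7, Psmd14, Psme2, Psme4, Uba1 and Adrm1) were chosen after their values were seen. Members and lists were chosen with earlier results of these data known. Alternatives were DESeq2 version 1.42.0, limma version 3.58.1 (voom, or trend on log2 of RPKM plus 0.1 or 1), other size factors, filters and covariates, and leaving out libraries. Scripts were tested on simulated data. Paaf1, listed among the pathway genes, was not matched.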

Additional observations from a re-analysis of the deposited data

Results flagged for a closer look

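In 94 groups of 4 libraries checked, 2 held a library far from the other 3, where chance gives about 1 in 20. Psmc5 was at 108 CPM in GFP-GR100 2, against 122 to 124 CPM in the other GFP-GR100 libraries. Ubqln1 was at 201 CPM in GFP 4, against 188 to 189 CPM in the other GFP libraries.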

How the results depend on the processing

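Of the alternatives, 0 called any of the 32 members in either direction or in the test of the difference between sexes. A test of the group effect against a log2 fold change of 1 also called 0. The members lay between -0.27 and 0.08, so that test could add no call. No paired analysis was possible because the labels give no replicate numbers that the groups share. The 7 members lower at an unadjusted p under 0.05 were 3 without the sex covariate, with no filter or with a mean of at least 1 CPM, 1 on RPKM plus either pseudocount (limma-trend) or without GFP 3 and GFP-GR100 4, 14 with the rRNA share as a covariate, and 0 to 10 when single libraries were left out. The share of all genes changed as well, from 2.51% on RPKM plus 0.1 to 10.9% with the rRNA share. The medians of both particles and their difference moved by less than 1 SD of the averages by library. These SDs were 0.173 for the core, 0.112 for the regulatory particle and 0.0822 for the difference. For the core (-0.11) and the difference (0.07) the SD is larger than the result, so it cannot show that these are stable. Without GFP 3 and GFP-GR100 4 the medians were -0.01 and -0.08, and on RPKM plus 0.1 they were -0.05 and -0.12 (core and regulatory). Of the other pathway genes, where 0 were called, 3 were called higher with no filter or DESeq2, 2 on RPKM plus 1, 1 on RPKM plus 0.1, with a mean of at least 1 CPM, with limma-voom, with the rRNA share or without the sex covariate, 5 without GFP 3 and GFP-GR100 4, and 0 to 4 when single libraries were left out. With the rRNA share 1 was called lower (Uba1). Among the genes that the naming rule took, directions turned without GFP 3 and GFP-GR100 4 for Psma8 (-0.03), Psmb4 (0.03), Psmb3 (0.04), Psmb2 (0.05), Psmd4 and Psmd13 (0.01 each) and Pomp (0.04), for Pomp without GFP 3 (0.00, just above 0), and for Psma8 without GFP 2, GFP-GR100 2 or GFP-GR100 4 (-0.03, 0.00 and -0.05). Without single libraries, Psma8 ran from -0.05 to 0.31 and Pomp from -0.13 to 0.00. The cause was not tested. The sex difference was not run without the sex covariate, and members with few counts, here Psma8, are limited by depth.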

Other observations

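Uba1 and Adrm1, which work with the proteasome, had fold changes of opposite sign in the sexes, but neither difference passed the test. Uba1, the main ubiquitin-activating enzyme, was at 329 and 350 CPM in GFP females, 347 and 382 in GFP males, 358 and 334 in GFP-GR100 females and 256 and 235 in GFP-GR100 males. The GFP-GR100 males lie below the other 6 libraries. The log2 fold change was -0.57 (SE 0.11) in males and 0.03 (SE 0.11) in females, and the difference did not pass (unadjusted p = 0.00161, adjusted p = 0.115 by edgeR). Adrm1, a ubiquitin receptor of the regulatory particle, was at -0.37 in males and 0.20 in females on the same scale (adjusted p = 0.126 by edgeR). Psme4, which encodes the activator PA200, had a difference of the other sign, at 0.33 in males and -0.07 in females (adjusted p = 0.216 by edgeR). Uba1, Adrm1 and Psme4 were chosen after their values were seen, and the rRNA share differed in the same libraries.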
